A study of Mus musculus with 2 samples.

Results

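The vesicular glutamate transporters of trigeminal ganglion (TG) neurons were described as a family of 3 genes, Slc17a6, Slc17a7 and Slc17a8, out of 39098 gene symbols in the deposited matrices. The members were taken by name, without regard to their measured level, and all 3 were present in both libraries. The study profiled dissociated cells of the right TG, the sensory ganglion of the face, by single-cell RNA sequencing on the BD Rhapsody platform. All mice were male C57BL/6 animals of 5 to 8 weeks, and the labels name no genetic modification. The CFA group received 20 μL of complete Freund's adjuvant (CFA), an oil emulsion that causes lasting inflammation, mixed 1:1 with sterile saline and injected into the right vibrissal pad. The control group received 20 μL of saline by the account of the study, although its label reads untreated. Ganglia were collected 7 days after the injection. The study used 6 mice per group, 1 library was deposited per condition, and the number of mice pooled in a library was not given in the sources used here. Animal, dissociation and library therefore cannot be told apart from the treatment, no p-value was computed, and every interval given here covers counting error only.

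Vesicular glutamate transporters carry glutamate from the cytosol into synaptic vesicles, using the electrical gradient that the vesicle proton pump builds, and a neuron that releases glutamate needs at least a single member. Slc17a6 encodes VGLUT2, which is widespread in primary sensory neurons. Slc17a7 encodes VGLUT1, known from large myelinated mechanosensory and muscle afferents, and Slc17a8 encodes VGLUT3, known from unmyelinated low-threshold mechanoreceptors of the skin.

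On the mouse assembly GRCm38, Slc17a6 lies on the plus strand at chr7:51622006-51671119, Slc17a7 on the plus strand at chr7:45163949-45176142, and Slc17a8 on the minus strand at chr10:89574020-89621253. Each transcript compared has 12 exons in the GENCODE M21 annotation, with coding sequences of 1749, 1683 and 1806 bases in the same order. The coding sequences were alike enough that the assignment of reads to a member is a fair question. Slc17a6 and Slc17a7 shared 71.7% of aligned coding bases, Slc17a6 and Slc17a8 shared 71.7%, and Slc17a7 and Slc17a8 shared 71.4%. The longest run of bases shared by a pair of transcripts was 25, between Slc17a6 and Slc17a8, shorter than a typical sequencing read. The stretch in which the 3 members were most alike is shown first, because 47 of its 60 bases were identical in all 3. Capitals mark the bases that are not identical in all 3, and the sequences are from GENCODE M21, 5′ to 3′.
Slc17a6, coding bases 565 to 624: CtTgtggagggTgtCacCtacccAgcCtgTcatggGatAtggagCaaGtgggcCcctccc
Slc17a7, coding bases 541 to 600: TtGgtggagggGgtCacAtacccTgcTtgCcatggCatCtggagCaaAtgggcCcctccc
Slc17a8, coding bases 619 to 678: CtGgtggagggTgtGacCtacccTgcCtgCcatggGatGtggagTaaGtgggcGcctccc

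The last 60 coding bases are shown for contrast. This library chemistry primes on the poly(A) tail, so reads lie toward the 3′ end of a transcript. In the transcripts compared, 1759, 1098 and 2296 bases follow the stop codon of Slc17a6, Slc17a7 and Slc17a8. Neither stretch shown covers those bases, so the stretches do not tell how reads were assigned. Only 7 of the last 60 coding bases were identical in all 3 members, and capitals again mark the rest.
Slc17a6, coding bases 1690 to 1749: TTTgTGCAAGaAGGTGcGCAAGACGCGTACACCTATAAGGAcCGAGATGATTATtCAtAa
Slc17a7, coding bases 1624 to 1683: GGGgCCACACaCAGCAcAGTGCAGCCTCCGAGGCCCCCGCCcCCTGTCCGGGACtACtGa
Slc17a8, coding bases 1747 to 1806: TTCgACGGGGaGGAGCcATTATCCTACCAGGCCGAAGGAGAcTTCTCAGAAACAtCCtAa

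Values are unique molecular identifiers (UMIs), each a captured RNA molecule counted once whatever the length of its transcript, and how well each member's RNA is captured was not measured. Levels are UMIs of a gene summed over a class and scaled to 1000000 UMIs of that class (CPM). The control file held 7298 cells and 48916096 UMIs and the CFA file 4080 cells and 22096268 UMIs. Neurons, gated on the neuronal tubulin gene Tubb3, numbered 769 in the control library with a median of 45934 UMIs and 397 in the CFA library with a median of 37293 UMIs. The libraries shared 27 cell index numbers, and 6 kept neurons of both libraries together carried such a number. Leaving out the cells with a shared number kept the direction of all 31 ratios of the members. Neurons were assigned to 9 named classes by raw UMIs of marker genes, none of them a transporter. These were cLTMR (C-fibre low-threshold mechanoreceptors, 69 control and 42 CFA neurons), Mrgprd neurons (157 and 61), Mrgpra3 neurons (45 and 12), Nppb neurons (14 and 11), Trpm8 neurons (49 and 24), A-fibre neurons with high Nefh and low Calca (18 and 9), Nefh-Calca neurons with both (21 and 9), and C-fibre peptidergic neurons with high Calca and low Nefh, split into Sstr2+ (130 and 71) and Sstr2- (231 and 129). A further 33 and 28 neurons passed no gate. Marker genes that the gates did not use were highest in their own class, except Scn4b (both libraries) and Ntrk3 (CFA library) for A-fibre neurons and Nefm for Nefh-Calca neurons. Neuron sums held UMIs of genes known from other cells. The 5 Schwann cell genes stood at 1041 CPM in control and 871 CPM in CFA neurons, and 5 satellite glia genes at 235 and 179 CPM. The 4 erythroid genes were higher in CFA, at 35.1 and 44.3 CPM. The Schwann cell sum differed between classes, with 2122 CPM in control cLTMR and 442 CPM in control Trpm8 neurons. Whether this RNA came from other cells, and its part in the results below, was not tested.

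Slc17a6 was the transporter of nearly every neuron. At least 1 UMI was found in 766 of 769 control neurons and 393 of 397 CFA neurons, with a median of 19 and 20 UMIs per neuron. It made up 96.4% of all UMIs of the 3 transporters in both libraries. Over all neurons the control level was 426 CPM (95% interval 419 to 432), and the CFA level was 539 CPM (528 to 550).

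Among the classes, Trpm8 neurons, which sense cold, held the highest Slc17a6 level, and Nppb neurons, a small itch-related class, the lowest. In Trpm8 neurons the summed level was 694 CPM in control and 909 CPM in CFA. The cLTMR followed at 520 and 642 CPM. In 6 other classes, the Sstr2+ and Sstr2- peptidergic, Nefh-Calca, A-fibre, Mrgpra3 and Mrgprd neurons, levels ran from 344 to 442 CPM in control and from 400 to 628 CPM in CFA. Neighbours within that control range could not be told apart by their counting intervals, whereas Trpm8 neurons stood above cLTMR, cLTMR above the Sstr2- peptidergic neurons and Mrgprd neurons above Nppb neurons. In the CFA library the neighbours that could be told apart were Trpm8 neurons above cLTMR, Sstr2+ peptidergic above Mrgpra3 neurons, and Mrgprd above Nppb neurons.

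**Figure D1:**
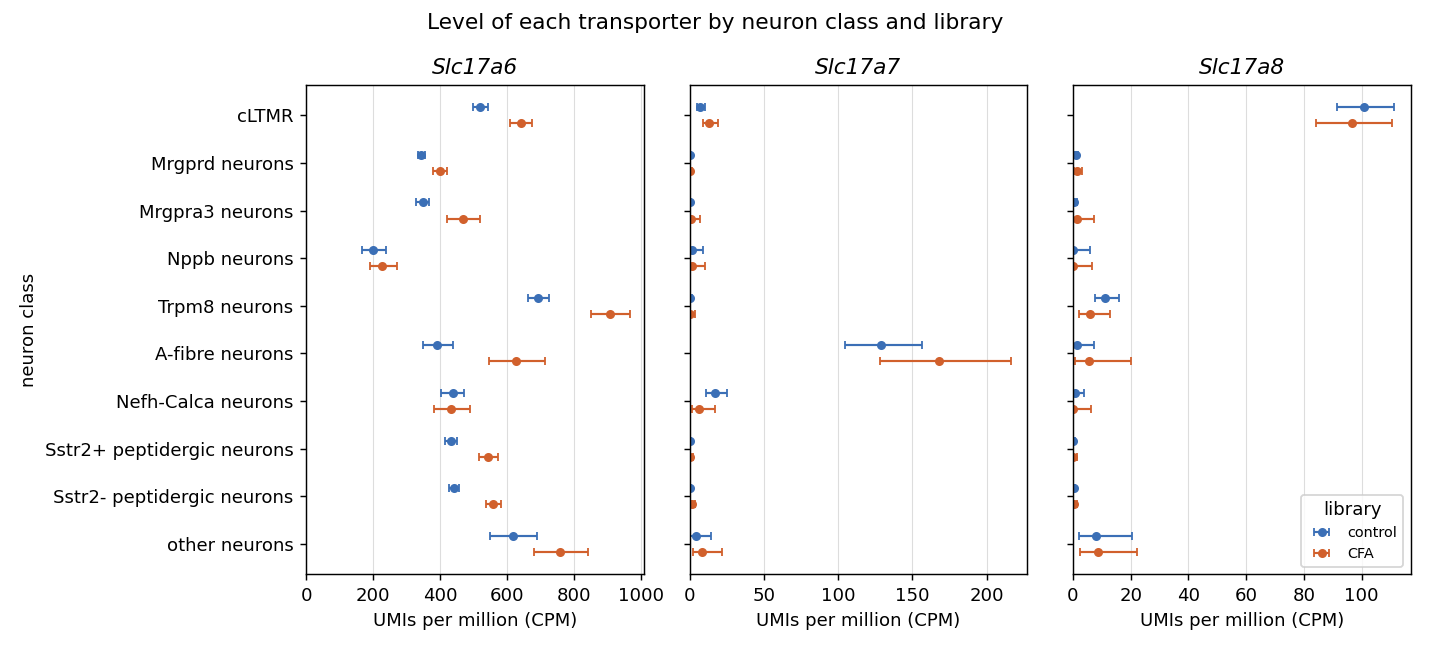
Level of each transporter in CPM (x axis, a separate linear scale for each gene) in 9 named neuron classes and the ungated neurons (y axis), with points for the control (blue) and CFA (orange) libraries and bars for the 95% counting interval. Slc17a6 was found in every class, from 201 CPM in Nppb to 694 CPM in Trpm8 neurons of the control library, while Slc17a7 peaked in A-fibre neurons and Slc17a8 in cLTMR.

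The Nppb class was the exception in more than its mean. Summed over control neurons its Slc17a6 level was 201 CPM (168 to 240), over CFA neurons 228 CPM (190 to 272), and the median neuron held 85.6 and 147 CPM. A few neurons carried much of that sum. In the control library 2 of the 14 neurons, with 1020 and 748 CPM, supplied 45 and 28 of the 126 Slc17a6 UMIs. Both sat exactly at the gate of 5 Nppb UMIs and had no UMI of Il31ra, the interleukin-31 receptor gene that marks this class, whereas the other 12 held 20 to 95 Nppb UMIs and ranged from 0 to 227 CPM. Of Sst, another marker of the class, the 2 held 11 and 0 UMIs, and the other 12 held 13 to 226. In the CFA library a neuron with 24 Nppb, 3 Il31ra and no Sst UMIs stood at 1036 CPM. The next stood at 467 CPM, and the other 9 ranged from 72.0 to 241 CPM. With the marker thresholds doubled, the control level of the class was 97.4 CPM, further below the other classes.

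Within a class the level of single neurons ranged widely. At a median of 19 and 20 Slc17a6 UMIs per neuron, these ranges include counting error, which was not separated from them. A range also widens with the number of neurons. Slc17a6 spanned 167 to 939 CPM over the 69 control cLTMR and 62.8 to 1284 CPM over the 157 control Mrgprd neurons. In Trpm8 neurons the range was 252 to 1232 CPM in control and 331 to 1943 CPM in CFA. The ranges of the libraries overlapped in every class, and the median neuron was higher in the CFA library in 8 of the 9 named classes, Nefh-Calca neurons being the exception with 429 CPM in control and 411 CPM in CFA.

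**Figure D2:**
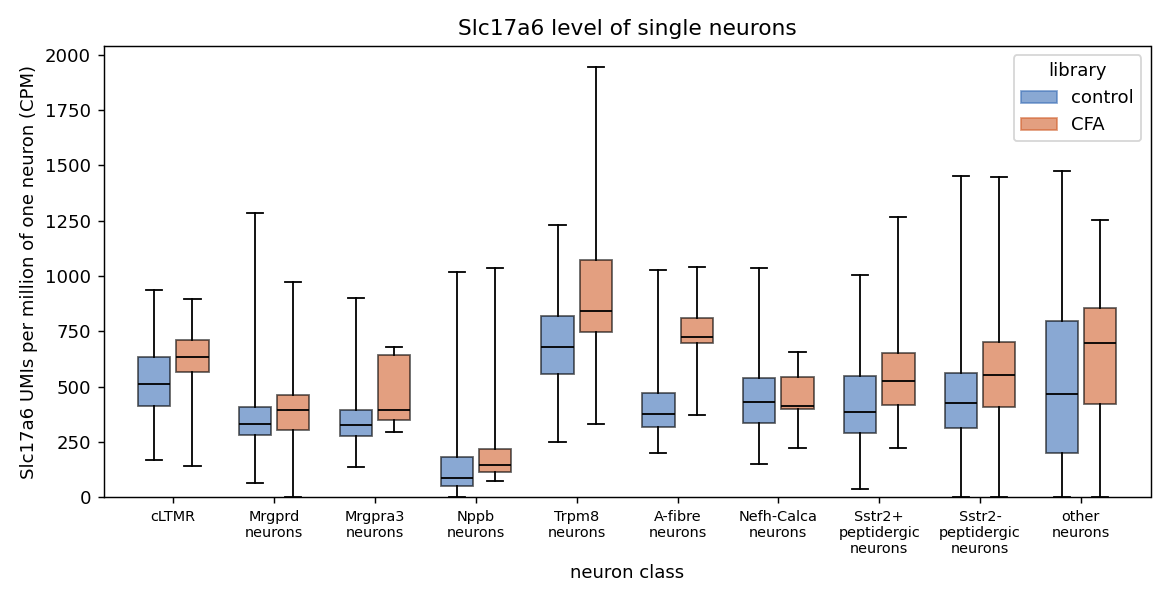
Slc17a6 CPM of single neurons (y axis) by neuron class (x axis) in the control (blue) and CFA (orange) libraries, with boxes from the first to the last quartile, a line at the median and whiskers to the lowest and highest neuron. The median of Nppb neurons was 85.6 CPM in control and 147 CPM in CFA, below the other classes, and the ranges of the libraries overlapped in every class.

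Between the libraries, Slc17a6 was modestly higher in CFA neurons, and the difference was of similar size in most classes. Over all neurons the ratio of CFA to control was 1.26 (1.23 to 1.30), a log2 ratio of 0.34 (0.30 to 0.38). With every class given the share of neurons' UMIs it had in the control library, the log2 ratio was 0.31. The counting interval lay above 0 in 7 of the 9 named classes and below 0 in none. The share of all genes with such intervals was not computed. Among genes with at least 50 counts over both libraries, 87.7% had a lower ratio than Slc17a6 over all neurons. In those 7 classes the share ran from 81.1% in Mrgprd to 93.2% in A-fibre neurons.

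By class, the log2 ratio of Slc17a6 was 0.30 (0.20 to 0.40) in cLTMR, 0.39 (0.27 to 0.50) in Trpm8 neurons and 0.22 (0.13 to 0.30) in Mrgprd neurons. The peptidergic neurons had 0.33 (0.23 to 0.43) with Sstr2 and 0.34 (0.27 to 0.42) without it. These nociceptive, touch and cold classes lay on the same side of 0. Mrgpra3 neurons, of which the CFA library held 12, had 0.43 (0.26 to 0.60), but 0.23 with gates on thinned neurons and -0.19 with every neuron thinned to 5000 UMIs. The 2 classes whose interval included 0 were Nppb neurons at 0.18 (-0.19 to 0.55) and Nefh-Calca neurons at -0.02 (-0.23 to 0.19), each with 9 to 21 neurons per library. The value of Nppb neurons depended on the gate. Its log2 ratio was 1.23 with doubled marker thresholds and 1.09 with gates on thinned neurons, both past 1.5-fold, where the control level was 97.4 and 107 CPM.

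A difference of 1.5 times or more was called by its size alone, among genes with at least 50 counts over both libraries. Slc17a6 was called higher in 1 of 9 classes, the A-fibre neurons, where 10% of all genes tested were higher by that size. The share of genes called higher was 2.88% in Mrgprd, 3.27% in cLTMR, 3.37% in Sstr2- peptidergic, 3.58% in Trpm8, 3.93% in Sstr2+ peptidergic, 4.01% in Mrgpra3, 6.64% in Nppb and 8.04% in Nefh-Calca neurons. The control A-fibre neurons held 391 CPM (348 to 438) and the CFA ones 628 CPM (548 to 715), a ratio of 1.60 (1.34 to 1.91). The difference was present in A-fibre neurons with Slc17a7 UMIs, at 377 and 545 CPM, and in those without, at 441 and 794 CPM. It rested on 18 and 9 neurons, and with doubled marker thresholds the log2 ratio was 0.42, below the size called.

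Satellite glia and interferon-induced RNA differed between the A-fibre sums of the libraries as well. The 5 satellite glia genes summed to 293 CPM in control, where Kcnj10 was at 0, and 552 CPM in CFA. Across single neurons their sum ran from 0 to 794 CPM in control and from 0 to 2727 CPM in CFA, and 1 CFA neuron held 76.6% of the list's UMIs. The 9 interferon-induced genes summed to 1072 CPM in control and 44.8 CPM in CFA, and 1 control neuron held 70.6% of these UMIs. Over all neurons the interferon-induced sum was also lower in CFA, at 306 CPM in control and 121 CPM in CFA. In the A-fibre sums Gbp4 was at 0 in both libraries and Cxcl9 in CFA, while over all neurons each of the 9 genes had counts. Whether these bear on the Slc17a6 difference was not tested.

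**Figure D3:**
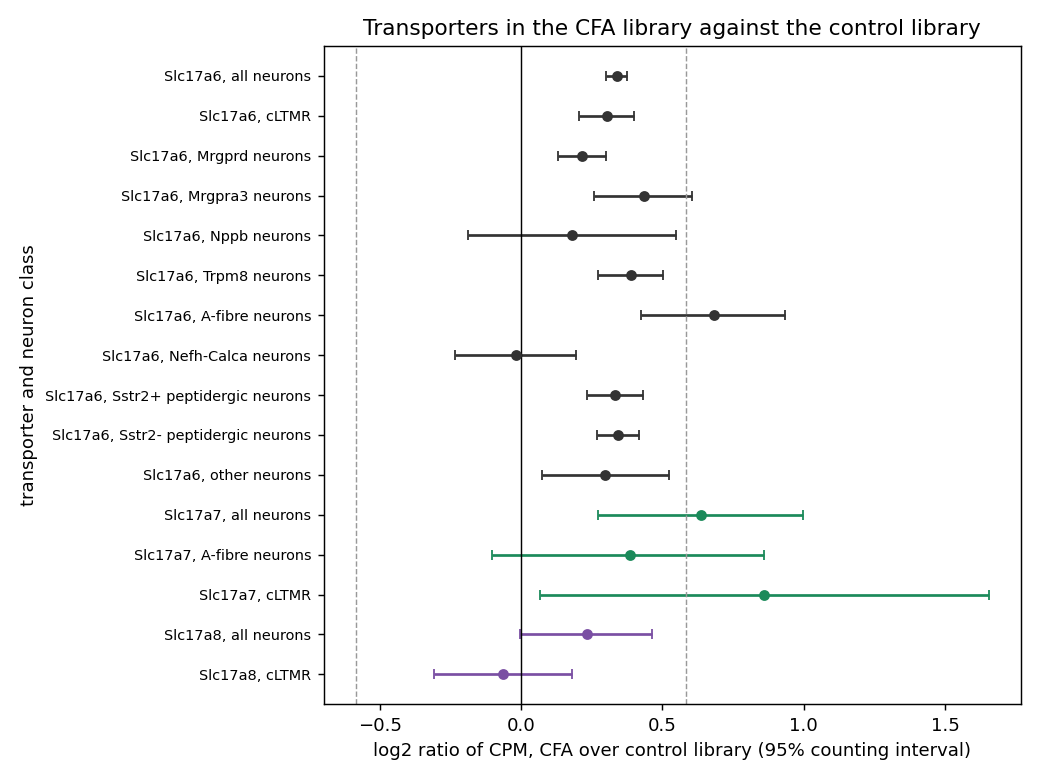
Log2 ratio of CPM in the CFA library over the control library (x axis) for each transporter and neuron class with enough counts (y axis), with bars for the 95% counting interval, a solid line at 0 and dashed lines at a 1.5-fold difference. Slc17a6 lay between 0.18 and 0.43 in 7 named classes, at 0.68 in A-fibre neurons and at -0.02 in Nefh-Calca neurons. The intervals of Slc17a7 and Slc17a8 were wider than that of Slc17a6 in the same neurons.

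Slc17a7 was a transporter of few neurons, and most of its UMIs lay in neurons rich in the neurofilament gene Nefh, a marker of myelinated neurons. It was found in 27 control neurons with 161 UMIs in all and in 21 CFA neurons with 109 UMIs. The A-fibre neurons, 18 and 9 in number, held 62.1% of these UMIs in control and 55.0% in CFA. Their control level was 129 CPM (105 to 157), beside 168 CPM (128 to 216) in the CFA library.

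No other class came near. Nefh-Calca neurons had 16.8 CPM from 24 UMIs in control and 6.68 CPM from 4 UMIs in CFA. The cLTMR had 7.29 and 13.2 CPM, from 29 UMIs in each library. Peptidergic C-fibre and cold-sensing neurons had almost none. The C-fibre peptidergic neurons had 3 UMIs among 361 control neurons and 8 among 200 CFA neurons. Trpm8 neurons had none in 49 control and 24 CFA neurons, where 3 UMIs would have corresponded to 1.16 and 2.95 CPM. The counting intervals of A-fibre neurons lay above those of every other class in both libraries.

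By Nefh alone the UMIs were concentrated as well, but at a lower level than the 129 and 168 CPM of A-fibre neurons. Neurons with at least 20 Nefh UMIs, 98 in control and 44 in CFA, held 93.8% and 84.4% of the Slc17a7 UMIs, at 22.9 and 38.1 CPM. All other neurons stood at 0.315 and 1.19 CPM. The A-fibre gate uses the same Nefh count, so this is no independent result, and a threshold on raw UMIs favours deep cells. Not every Nefh-rich neuron held Slc17a7. Single Trpm8 neurons had as many as 343 Nefh UMIs in control and 244 in CFA, and no Trpm8 neuron had a Slc17a7 UMI. Within A-fibre neurons, the 12 control neurons with a Slc17a7 UMI had a median of 51974 UMIs and the 6 without one 26657, and in CFA the medians were 49045 for 5 and 24342 for 4 neurons.

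Where Slc17a7 was found, it came as a graded addition to Slc17a6. Among the 9 control A-fibre neurons with at least 3 Slc17a7 UMIs, the counts were 20, 16, 16, 11, 10, 8, 7, 5 and 3, beside 8 to 33 Slc17a6 UMIs. The 4 such CFA neurons had 39, 8, 8 and 4, beside 14 to 35 Slc17a6 UMIs. Of all 20 neurons with at least 3 Slc17a7 UMIs, Slc17a7 exceeded Slc17a6 in 1, a CFA A-fibre neuron with 39 against 35 UMIs and the highest Nefh count among them, 255. In A-fibre neurons as a whole Slc17a7 supplied 24.7% (20.6 to 29.2) of transporter UMIs in control and 21.0% (16.4 to 26.2) in CFA, against 3.69% and 1.52% in Nefh-Calca neurons. These shares changed with the weight given to each neuron and with the gates. With every neuron weighted equally they were 20.2% and 13.4%. With gates on thinned neurons, which change the members of the class, they were 11.6% and 14.5%. With every neuron thinned to 5000 UMIs the CFA share was 9.09%, from a mean of 0.333 Slc17a7 beside 3.33 Slc17a6 UMIs per neuron. Control neurons so thinned held a mean of 0.611 Slc17a7 beside 1.94 Slc17a6 UMIs, a share near the unthinned 24.7%.

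**Figure D4:**
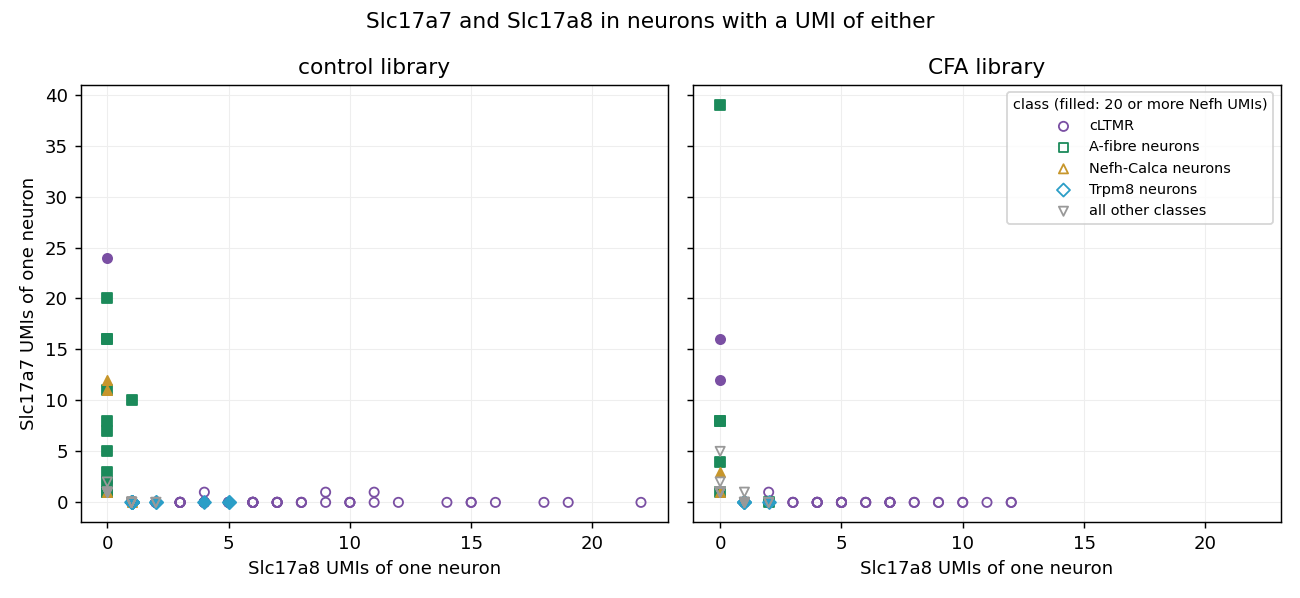
Slc17a7 UMIs (y axis) against Slc17a8 UMIs (x axis) of single neurons with at least 1 UMI of either, in the control (left) and CFA (right) libraries, with symbols for neuron class, filled where the neuron had at least 20 Nefh UMIs, and coincident points drawn on top of each other. Most neurons lay on an axis, while 4 control and 2 CFA neurons held UMIs of both genes. Those with 3 or more Slc17a7 UMIs had at most 1 Slc17a8 UMI. The counts are too small to set apart from the Slc17a8 shares of all neurons.

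The library difference of Slc17a7 could not be separated from single neurons. Over all neurons it was at 4.20 CPM in control and 6.54 CPM in CFA, a log2 ratio of 0.64 (0.27 to 1.00). That is called higher, as were 4.47% of genes over all neurons. Without the neuron with most Slc17a7 UMIs in each library the log2 ratio was 0.24 (-0.20 to 0.66). In A-fibre neurons it was 0.39 (-0.10 to 0.86), and the top neurons held 20 of 100 UMIs in control and 39 of 60 in CFA. Without them the log2 ratio was -0.50 (-1.27 to 0.21).

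Slc17a7 was also called higher in cLTMR, at a log2 ratio of 0.86 (0.07 to 1.66), as were 3.27% of genes there. Those counts came from few cells, since 2 cLTMR in each library had at least 20 Nefh UMIs and held 26 of the 29 control UMIs and 28 of the 29 CFA UMIs. A single neuron held 24 of the 29 in control. The remaining 67 control and 40 CFA neurons had 3 and 1 Slc17a7 UMIs. With only the neuron with most Slc17a7 UMIs left out of each library, the log2 ratio was 2.24 (0.66 to 4.08). None of the cLTMR with at least 20 Nefh UMIs had a Slc17a8 UMI. The 3 with at least 3 Slc17a7 UMIs held 6, 5 and 10 UMIs of Tafa4 and 8, 20 and 24 of P2ry1. The gate asks for 5 of each.

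Slc17a8 was the second transporter of the cLTMR. Control cLTMR held 101 CPM (91.4 to 111) and CFA cLTMR 96.8 CPM (84.2 to 111), with UMIs in 62 of 69 and 39 of 42 neurons. The class held 88.9% and 91.8% of all Slc17a8 UMIs of neurons. The median cLTMR had 5 UMIs in each library, and the highest had 22 in control and 12 in CFA.

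Slc17a8 stayed below Slc17a6 where it was best detected. It exceeded Slc17a6 in 0 of the 54 control and 0 of the 31 CFA neurons with at least 3 of its UMIs. Single cLTMR reached 18 Slc17a8 beside 34 Slc17a6 UMIs in control and 12 beside 26 in CFA. With fewer UMIs, an ungated CFA neuron held 2 of Slc17a8 and 1 of Slc17a6. In cLTMR Slc17a8 supplied 16.1% (14.7 to 17.6) of transporter UMIs in control and 12.9% (11.3 to 14.6) in CFA. There Slc17a6 supplied 82.8% and 85.4%. Of the neurons with at least 3 Slc17a8 UMIs, 51 of 54 in control and 31 of 31 in CFA were cLTMR.

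The rest of the Slc17a8 signal was small, and in the control library Trpm8 neurons held most of it. These had 29 UMIs in 16 of 49 control neurons, 11.2 CPM (7.52 to 16.1), and 6 UMIs in 5 of 24 CFA neurons, 5.89 CPM (2.16 to 12.8). The 3 control neurons outside cLTMR with at least 3 UMIs belonged to this class. In the CFA library the remainder was spread, with 5 UMIs in Mrgprd neurons and 4 in ungated ones beside the 6 of Trpm8 neurons. Mrgprd neurons had 1.11 CPM in control and 1.29 CPM in CFA, Nppb and Sstr2+ peptidergic neurons had none, and each remaining named class had at most 2 UMIs per library.

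Slc17a8 did not differ between the libraries beyond its counting error in the class that uses it. The log2 ratio in cLTMR was -0.06 (-0.31 to 0.18), so that differences up to 1.13-fold higher or down to 0.807-fold remained within the interval. It was -0.02 (-0.27 to 0.22) in the cLTMR with fewer than 20 Nefh UMIs, at 104 and 103 CPM. Over all neurons the level was 11.8 CPM in control and 13.9 CPM in CFA, a log2 ratio of 0.23 (-0.0024 to 0.46). The cLTMR made up 8.97% of control and 10.6% of CFA neurons, and with the class mix of the control library the log2 ratio was -0.07. In Trpm8 neurons it was -0.93 (-2.49 to 0.36), from 35 UMIs in all.

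Few neurons held both second transporters. Of the neurons with at least 3 Slc17a7 UMIs, 1 of 12 in control and 0 of 8 in CFA had any Slc17a8 UMI, where 12.6% of all control and 13.6% of all CFA neurons had one. The counts are too small to set apart from these shares. At full depth 4 control and 2 CFA neurons held UMIs of all 3 members. No neuron with Slc17a7 or Slc17a8 lacked Slc17a6 in either library, and Slc17a6 alone was found in 646 of 769 and 320 of 397 neurons.

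The neurons with at least 3 UMIs of Slc17a7 or of Slc17a8 differed in Nefh. At least 20 Nefh UMIs were present in 12 of 12 control and 7 of 8 CFA neurons with at least 3 Slc17a7 UMIs. Among neurons with at least 3 Slc17a8 UMIs, 3 of 54 and 0 of 31 had as many, and all 3 were Trpm8 neurons. Of all neurons, 98 of 769 in control and 44 of 397 in CFA had as many. These Nefh-rich neurons still held 30 control and 8 CFA UMIs of Slc17a8, 6.64% and 3.46% of its UMIs.

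At equal depth each member was still detected in the classes that held most of its UMIs. Slc17a6 was not found beside every second transporter, however. At 5000 UMIs, 3 control neurons had only Slc17a7, and 1 neuron in each library had only Slc17a8. With each neuron thinned to 5000 UMIs, Slc17a6 was detected in 87.4% (84.8 to 89.7) of control and 89.7% (86.2 to 92.5) of CFA neurons, against 99.6% and 99.0% without thinning. Non-neuronal cells thinned in the same way had it in 10.9% (5.34 to 19.1) of 92 cells of the control library, and in 5.36% (1.12 to 14.9) of 56 cells of the CFA library. Shallower non-neuronal cells, 4655 and 2541 in number, were left out of these shares.

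Slc17a8 was detected at that depth in 40.6% (28.9 to 53.1) of control and 33.3% (19.6 to 49.5) of CFA cLTMR. In non-neuronal cells it was found in 1.09% in control and in 0 of 56 cells in CFA, which allows up to 5.36%. Slc17a7 was detected in 33.3% (13.3 to 59.0) of control and 33.3% (7.49 to 70.1) of CFA A-fibre neurons. No non-neuronal cell of that depth had it, which allows up to 3.26% in control and 5.36% in CFA.

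Summed over 4747 control and 2597 CFA non-neuronal cells, with medians of 1392 and 1130 UMIs, Slc17a6 stood at 26.1 CPM (22.7 to 29.8) and 15.5 CPM (11.9 to 20.0). In control the level ran from 9.28 CPM in endothelial cells to 39.3 CPM in immune cells, with satellite glia at 26.9 and Schwann cells at 26.8 CPM. Slc17a7 had 5 and 2 UMIs and Slc17a8 had 9 and 0 UMIs in all of these cells. The lowest named neuron class, control Nppb neurons, held 201 CPM of Slc17a6, or 97.4 CPM with doubled marker thresholds, 107 CPM with gates on thinned neurons and 139 CPM without its top neuron.

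The genes that supply glutamate and power its loading were examined in 3 lists over all neurons. There 4.47% of genes were called higher and 4.59% lower in CFA, and the median log2 ratio of all genes tested was -0.00109. Of 16 genes of glutamate supply and uptake, 12 had enough counts. Among them 1 was called higher and 0 lower, and their median log2 ratio was -0.12. The gene called was Slc1a1, a neuronal glutamate uptake carrier, at 1.37 (0.52 to 2.23) from 24 control and 27 CFA UMIs. The lowest was Slc1a2, an uptake carrier best known from glia, at -0.45 (-1.26 to 0.29). Got2, the mitochondrial aspartate aminotransferase, had the highest level at 309 and 322 CPM. In Trpm8 neurons, the class richest in Slc17a6, Got2 was at its highest in each library, with 644 and 695 CPM.

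The list for the proton pump that powers vesicle loading held 15 genes, of which 0 were called in either direction. Their log2 ratios ran from -0.24 to 0.29, with a median of -0.10. The highest, 0.29 (0.22 to 0.35), belonged to Clcn3, a chloride-proton exchanger and not a subunit of the pump. The highest ratio of a pump gene was 0.18 (0.15 to 0.21), for Atp6v1a. Intervals lay above 0 for 3, Clcn3 among them, and below 0 for 8, but the share of all genes with such intervals was not computed. At counts this high, an interval can exclude 0 for a small ratio. Atp6v0c, a membrane ring subunit, had the highest level in control at 913 CPM and stood at 771 CPM in CFA. Atp6v1a, the catalytic subunit, was highest in CFA at 838 CPM and stood at 739 CPM in control.

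Of 10 genes for other transporters of the same family or for other transmitters, 9 were found and 3 had enough counts, of which 0 were called higher and 1 lower, with a median log2 ratio of 0.06. Slc18a1, a vesicular monoamine transporter, was called lower at -0.65 (-1.66 to 0.26), an interval that includes 0, from 47 and 13 UMIs. Slc17a9, the vesicular nucleotide transporter, was at 0.48 (-0.34 to 1.26) from 38 and 23 UMIs. The highest level of the list belonged to Slc17a5, the lysosomal sialic acid transporter, with 38.9 and 40.5 CPM. Slc32a1, the vesicular transporter for GABA and glycine, had 2 and 3 UMIs and Slc18a3, the acetylcholine transporter, 1 and 0 UMIs in all neurons.

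Genes whose level followed each member across classes were ranked by Pearson's r of log2(CPM + 5) over 18 points, the 9 named classes in each library, among 9492 genes. The points share 2 libraries and differ in depth, so r is a description. For Slc17a6 the 5 nearest genes were Mosmo (r = 0.92), Acadm (0.90), Zdhhc17 (0.89), Cst3 (0.89) and Mtss2 (0.88). For Slc17a7 they were Crbn (0.91), Cbln2 (0.87), Car2 (0.87), Ctnnbl1 (0.86) and Kcna1 (0.85). For Slc17a8 they were Gm6710 (0.95), Scin (0.95), Ceacam10 (0.94), Cacna1i (0.94) and Nxpe2 (0.93). Slc17a7 and Slc17a8 each have a single class with a high level, which weighs most in r.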

How the data were processed

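The authors deposited, for each library, a matrix of raw UMI counts (genes by cells) that is not normalized and holds the cells called by the BD Rhapsody pipeline. The submitters' processing notes name GRCm38 and fastp, and other steps, the pipeline version and the annotation are not given in the sources used here. Positions and sequences were taken from GENCODE M21 (GRCm38) by gene symbol.

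Kept cells had 150 or more genes and no more than 25% mitochondrial counts (6695 control, 3661 CFA). Neurons had at least 10 Tubb3 and 5000 total UMIs. Class gates were at least 5 UMIs of both P2ry1 and Tafa4 (cLTMR), 5 of Mrgprd, Mrgpra3 or Nppb, and 3 of Trpm8. Neurons past 2 of these gates (2 control, 1 CFA) counted as mixed and entered the sums over all neurons only. The rest were split at 20 Nefh, 50 Calca and 2 Sstr2 UMIs. Non-neuronal cells had fewer than 3 Tubb3 UMIs. Doublets were kept. Leaving out the top 5% of Scrublet scores, an alternative, removed 28 control and 21 CFA neurons.

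UMIs were summed per class and library and divided by the class total (CPM). Intervals at 95% were exact Poisson for levels, Clopper-Pearson for shares and conditional exact binomial for ratios, and a count of 0 allows up to 3 counts. The median depth of 45934 and 37293 UMIs per neuron makes 1 UMI worth more than 20 CPM in a single neuron, so low levels rest on sums. Simulated counts were drawn from the Poisson model that the intervals assume, without variation between neurons or animals. On them the ratio intervals held the true ratio for 95.4% of 14284 unchanged genes over all neurons. The share was 96.4% of 4346 in A-fibre neurons and 95.4% of 9165 in cLTMR. This checks the calculation only.

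The members, gene lists and class gates were chosen with earlier results of these data known. The genes named are the members in every class and, from the lists, the 2 highest and 2 lowest log2 ratios with at least 50 counts and the highest level per list. Clcn3 was named as well, because it is in the pump list without being a pump subunit. The 5 genes nearest to each member in pattern had at least 500 counts over all gated neurons. Alternatives were a stricter and no mitochondrial filter, doubled and halved marker thresholds, gates on thinned neurons, doublet removal, reassigned mixed neurons, totals without mitochondrial genes, equal weights per neuron, thinning to 5000 or 2000 UMIs, centring on the median gene and the class mix of the control library. Leaving out shared cell index numbers, the neuron with most UMIs of the gene, or cLTMR with at least 20 Nefh UMIs was chosen after seeing the data. Analyses used Python 3.11.15, numpy 2.4.6, scipy 1.17.1, scanpy 1.11.5 and biopython 1.88.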

Additional observations from a re-analysis of the deposited data

Results flagged for a closer look

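Slc17a6 in Nefh-Calca neurons was nearly equal in the libraries, unlike in most other classes. Its log2 ratio of CFA to control there was -0.017 (-0.23 to 0.19), while in 7 of the 9 named classes the interval lay above 0, the lowest of them at 0.22 in Mrgprd neurons. The difference between the classes was not tested. The direction in Nefh-Calca neurons was not stable, at -0.49 with doubled and 0.13 with halved marker thresholds. Over 13 alternatives it ran from -0.49 to 0.37 and was below 0 in 10.

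Neurons left out for more than 25% mitochondrial counts also carried Slc17a6. In the control library 2 such neurons had 24 UMIs, 1367 CPM of nuclear genes (876 to 2033), where the kept neurons had 436 CPM. In the CFA library 4 had 11 UMIs, 636 CPM (317 to 1137), where the kept neurons had 553 CPM. Slc17a7 and Slc17a8 had no UMI in these cells.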

How the results depend on the processing

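No paired analysis was possible because each condition has 1 library. Slc17a6 over all neurons kept a log2 ratio between 0.27 and 0.35 in 14 alternatives, the lowest with neurons thinned to 5000 UMIs, where its ratio in Mrgprd neurons was 0.060. In A-fibre neurons it stayed between 0.42 (doubled thresholds) and 0.78. Thinning to 5000 UMIs gave Slc17a7 0.22 over all neurons and -0.87 in A-fibre neurons, and Slc17a8 -0.20 over all neurons and -0.46 in cLTMR, from few UMIs each. Without the neuron with most UMIs, Slc17a7 was at 0.24 over all neurons, -0.50 in A-fibre neurons and 2.24 in cLTMR. Its called ratio in cLTMR became -0.68, from 3 and 1 UMIs, without neurons of at least 20 Nefh UMIs. With the control class mix, Slc17a8 over all neurons was at -0.073. The Slc17a8 share in cLTMR was 17.8% in control with doubled thresholds and 10.3% in CFA with thinned neurons. The Slc17a7 share in A-fibre neurons was 11.6% and 14.5% with gates on thinned neurons, 20.2% and 13.4% with equal weights, and 9.09% in CFA with thinned neurons. In control A-fibre neurons thinned to 5000 UMIs the mean was 0.611 Slc17a7 beside 1.94 Slc17a6 UMIs, a share near the unthinned one. At 2000 UMIs, Slc17a6 was detected in 55.5% of control and 63.2% of CFA neurons, Slc17a8 in 1.69% and 2.02%, and Slc17a7 in 0.780% of control neurons. The cause of each change was not tested. The filters, doublet removal and reassigned mixed neurons left all values within their counting intervals.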
